A study of Mus musculus with 26 samples.

Results

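A set of 9 genes of the MHC class I system were followed by name through all 9 groups of the study: the light chain gene B2m and the heavy chain genes H2-K1, H2-D1, H2-T23, H2-T22, H2-M3, H2-Q4, H2-Q6 and H2-Q7. The members are named by symbol, in a set drawn up with earlier results of these data known, and all 9 were found among the 15629 genes of the authors' normalized table for MC38 cells and among the 15300 of the table for T cells. All 9 also passed the low-count filter in both tables, H2-Q6 and H2-Q7 in MC38 cells at levels of at most 1.25 CPM (counts scaled to library size). A class I molecule is a heavy chain held together with beta-2 microglobulin, the product of B2m, and it carries a short peptide from inside the cell to the surface, where CD8 T cells inspect it. Interferons raise the transcription of most of these genes, and the class I transactivator NLRC5 acts on their promoters. Tumour cells with little class I on the surface are poorly seen by CD8 T cells, while NK cells are restrained by it.

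The study set RNA of tumour cells beside RNA of T cells under inhibitors of PRMT5, an arginine methyltransferase that is partly blocked when methylthioadenosine (MTA) builds up, as in cells that lack the MTA-clearing enzyme MTAP. The tumour cells were MC38/gp100, mouse colon adenocarcinoma cells given the melanoma antigen gp100, as wild type (WT) and with Mtap knocked out (KO). Each line was given DMSO, 0.5 μM GSK3326595, a PRMT5 inhibitor that does not need MTA, or 0.5 μM MRTX1719, which binds PRMT5 together with MTA, for 5 days. The T cells were pmel-1 cells, wild type for Mtap, from mice with a transgenic receptor for a gp100 peptide shown by the product of H2-D1, kept in IL-2 and given the same 3 treatments for 3 days. Each group held 3 libraries of poly(A) RNA, except WT cells with MRTX1719, which held 2 (replicates 1 and 3). The 6 MC38 groups all carry gp100, and the labels do not say whether the KO line is a clone. Nor do they say whether replicates are separate cultures or animals, so p-values reflect the scatter of these libraries alone, part of which may be technical. The treatment field of the labels gives the last digit of GSK3326595 differently in replicates 2 and 3, and the titles give a single compound, which was followed.

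Library totals were 19302768 to 27786226 counts in the 17 MC38 libraries and 13813406 to 20772699 in the 9 T cell libraries. Mtap RNA stood at 388 to 397 CPM in WT cells under DMSO and at 264 to 276 CPM in KO cells, lower but present. All 10 T cell markers were at 1 CPM or more in T cell libraries, with summed levels of 10733 to 14503 CPM, while Cd4 and Foxp3 together reached at most 1.85 CPM. In MC38 cells the 6 leukocyte markers summed to 1.39 to 3.27 CPM. Epithelial markers were low for a colon adenocarcinoma, with 1 of 6 at 1 CPM or more and Epcam at 0 counts in every library of 5 of the 6 groups, and fibroblast and endothelial markers summed to 2659 to 8821 CPM. The epithelial sum moved with the groups, from 14.4 to 15.9 CPM in KO cells under DMSO to 59.1 to 62.5 CPM with the inhibitors, and the fibroblast and endothelial sum of KO cells went from 8424 to 8821 CPM to 4721 to 6500 CPM. In WT cells the epithelial sum was 22.2 to 24.8 CPM under DMSO, 39.0 to 40.7 CPM with GSK3326595 and 24.6 to 25.1 CPM with MRTX1719. The fibroblast and endothelial sum of WT cells was 2877 to 2912, 2983 to 3024 and 2659 to 2694 CPM in the same order. The part of these markers in the class I results was not tested. Fewer cells of a type and less RNA per cell cannot be told apart in such bulk libraries.

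The promoters of 5 members are shown because they hold, in differing sets, the short elements through which class I genes are commonly described as controlled, and because the RNA of these genes did not move alike. Each runs from 250 bases before to 50 bases after the annotated start, 5′ to 3′ on the gene's own strand, taken from RefSeq on GRCm38.p6. Capitals mark matches on either strand to GAANNGAAA, to the looser AANNGAAA and to a wider form, GAAA and GAAA spaced by 2 bases (cores of interferon response elements), GGATTCC (core of an NF-kB site), TGACG (core of a cAMP response element) and CCAAT (the Y box). The looser and the wider pattern were added after the sequences were seen, and each match to GAANNGAAA or to the wider form also contains an AANNGAAA match. The windows are B2m at chr2:122147437-122147736 on the plus strand, H2-K1 at chr17:34000298-34000597 on the minus strand, H2-T23 at chr17:36032652-36032951 on the minus strand, H2-M3 at chr17:37269984-37270283 on the plus strand and H2-Q7 at chr17:35438905-35439204 on the plus strand. H2-K1 has 2 annotated starts, and its first window is shown.
B2m: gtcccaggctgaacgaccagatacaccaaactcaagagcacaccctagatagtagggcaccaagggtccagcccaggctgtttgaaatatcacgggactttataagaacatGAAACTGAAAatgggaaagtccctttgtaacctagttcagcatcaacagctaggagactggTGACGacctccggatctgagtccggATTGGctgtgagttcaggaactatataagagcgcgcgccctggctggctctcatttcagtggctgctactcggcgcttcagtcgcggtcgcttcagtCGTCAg
H2-K1: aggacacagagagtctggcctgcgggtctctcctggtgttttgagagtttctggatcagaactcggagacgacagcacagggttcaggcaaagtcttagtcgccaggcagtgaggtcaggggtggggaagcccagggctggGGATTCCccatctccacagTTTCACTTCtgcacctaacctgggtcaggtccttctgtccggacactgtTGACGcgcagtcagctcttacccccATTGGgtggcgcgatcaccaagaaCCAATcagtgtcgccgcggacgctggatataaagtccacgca
H2-T23: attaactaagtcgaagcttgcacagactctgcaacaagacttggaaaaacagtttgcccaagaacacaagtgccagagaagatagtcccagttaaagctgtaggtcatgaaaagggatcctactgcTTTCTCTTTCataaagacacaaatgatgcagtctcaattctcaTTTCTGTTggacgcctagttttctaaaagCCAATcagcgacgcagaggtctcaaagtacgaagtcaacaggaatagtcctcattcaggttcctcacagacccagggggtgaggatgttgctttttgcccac
H2-M3: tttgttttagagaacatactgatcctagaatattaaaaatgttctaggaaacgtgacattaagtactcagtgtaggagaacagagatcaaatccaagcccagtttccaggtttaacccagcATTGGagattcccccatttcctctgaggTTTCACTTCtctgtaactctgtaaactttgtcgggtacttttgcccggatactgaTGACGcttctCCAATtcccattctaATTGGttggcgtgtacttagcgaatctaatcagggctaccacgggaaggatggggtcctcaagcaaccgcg
H2-Q7: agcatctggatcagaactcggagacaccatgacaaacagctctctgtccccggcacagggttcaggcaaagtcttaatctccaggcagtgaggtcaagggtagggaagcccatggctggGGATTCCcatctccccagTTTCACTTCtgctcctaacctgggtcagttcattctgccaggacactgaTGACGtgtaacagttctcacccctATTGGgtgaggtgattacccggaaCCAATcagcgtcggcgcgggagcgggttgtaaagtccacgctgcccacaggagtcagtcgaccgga

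Every member had at least 1 match to CCAAT, which 37.4% of all 32851 RefSeq windows of this length hold, and at least 1 to AANNGAAA, which 23.9% hold. The stricter GAANNGAAA was found in 6 of 9 members (H2-K1, H2-D1, H2-M3, H2-Q4, H2-Q6 and H2-Q7) and in 7.52% of all windows. The other 3 members, B2m, H2-T23 and H2-T22, held the wider (longer) form, present in 3.44% of all windows. This form and AANNGAAA were added after these sequences were seen, so their shares over all windows are not a fair comparison. TGACG was found in 7 of 9 members and 20.8% of windows, and was not in the windows of H2-T23 and H2-Q6. GGATTCC was found in H2-K1, H2-D1, H2-Q6 and H2-Q7 and in 3.79% of windows. In the H2-K1 sequence above the GGATTCC and GAANNGAAA matches lie close together, at -109 and -90 from the start, and H2-Q7 shows the same neighbouring pair, while H2-M3 holds the GAANNGAAA match without GGATTCC and H2-T23 holds neither. A match describes letters only and is not a bound site.

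The heavy chain genes are near copies of each other, which bears on how reads are assigned. Coding sequences of H2-Q6 and H2-Q7 were 95.4% identical over aligned bases and those of H2-K1 and H2-D1 91.5%, against 72.9% to 75.1% for H2-M3 with the other heavy chains (GENCODE transcripts, GRCm38). The share of a transcript's 50-base words found in another gene was 0% for B2m, 0.576% for H2-M3, 8.79% for H2-K1, 14.3% for H2-D1, 24.3% for H2-Q4, 28.8% for H2-T23, 32.0% for H2-Q6, 40.2% for H2-Q7 and 44.7% for H2-T22, most of it with H2-T10. Counts of H2-T22, H2-Q6 and H2-Q7, and to a lesser degree of H2-T23 and H2-Q4, are therefore uncertain where the counting split such reads. The gene sharing most 50-base words with H2-Q7 was H2-Q5 (20.1% of the words of H2-Q7), followed by H2-Q6 (19.6%).

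Compared per kilobase of transcript, B2m was the most abundant member in WT cells under DMSO at 1679 ± 17.1 CPM per kb (SD, n = 3). H2-K1 and H2-D1, the classical heavy chains that show peptides to CD8 T cells, followed at 801 ± 17.3 and 799 ± 18.4 CPM per kb and differed by less than their SD. Before scaling by length they had 1297 and 1680 CPM. A single transcript per gene set the length, 1.619 kb for H2-K1 and 2.102 kb for H2-D1. The SD covers the libraries and not this choice, on which the shares given below also rest. H2-Q4 had 161 ± 2.85, H2-T22 102 ± 4.75, H2-T23 97.0 ± 1.57 and H2-M3 15.0 ± 0.520 CPM per kb, and H2-Q6 and H2-Q7 had 0.168 ± 0.0798 and 0.250 ± 0.0711. The T cell table, normalized separately, had another order under DMSO, with H2-K1 at 1699 ± 20.9 CPM per kb, above B2m at 1207 ± 34.9. H2-D1 came next at 969 ± 8.76, then H2-Q4 at 884 ± 31.3, and H2-Q6 and H2-Q7 stood at 558 ± 66.9 and 529 ± 19.6 CPM per kb.

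The heavy chain RNA therefore had a different make-up in each kind of cell. In WT MC38 cells under DMSO, H2-K1 made up 40.5% ± 0.179 (SD, n = 3) and H2-D1 40.4% ± 0.401 of the summed CPM per kb of the 8 heavy chains. KO cells under DMSO had 35.7% ± 0.631 and 35.9% ± 0.419, with H2-T23 at 10.8% ± 0.175 against 4.91% ± 0.0703 in WT cells. In KO cells with MRTX1719 the share of H2-K1 was 31.1% ± 0.670 and that of H2-T23 12.3% ± 0.302. T cells under DMSO had 34.0% ± 0.731 H2-K1, 19.4% ± 0.234 H2-D1 and 17.7% ± 0.573 H2-Q4, and H2-Q6 and H2-Q7 together held more than H2-D1, at 11.2% ± 1.23 and 10.6% ± 0.505. Their copies H2-Q8 and H2-Q9 were not found by name among the counted genes, and reads may be shared with H2-Q5. The order of this pair against H2-D1 is therefore uncertain. Libraries of T cells with GSK3326595 had 39.5% ± 0.539 H2-K1, and 8.68% ± 0.0591 H2-Q6 and 7.58% ± 0.617 H2-Q7.

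**Figure D1:**
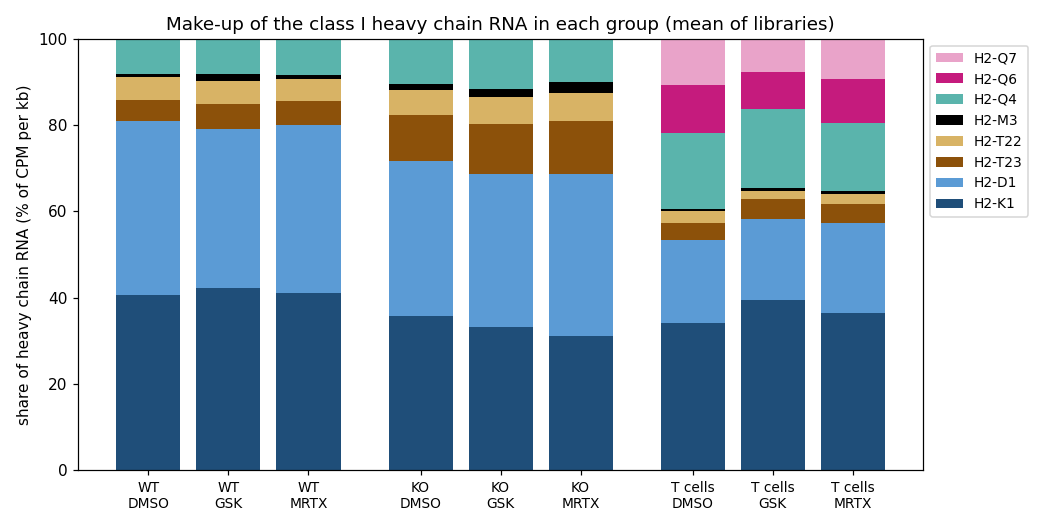
Stacked bars give the share of each of 8 heavy chain genes in their summed CPM per kilobase (%), as the mean of the libraries of each of the 9 groups. H2-K1 and H2-D1 hold 40.5% and 40.4% in WT cells under DMSO and 35.7% and 35.9% in KO cells, where H2-T23 is at 10.8%, and H2-Q6 and H2-Q7 are visible only in T cells.

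In MC38 cells most class I genes were lower in KO than in WT cells, and lower again with either inhibitor in KO cells. WT cells lost class I RNA strongly with GSK3326595 and weakly with MRTX1719. Changes are given as log2 fold changes ± SE from edgeR's quasi-likelihood test. Its p-values were adjusted by Benjamini-Hochberg across the 14835 genes tested, with a threshold of 0.05. Between the lines under DMSO, 5 members were lower in KO and 2 higher, where 73.2% of all genes differed (37% lower, 36.2% higher), so the count of members is near the background. GSK3326595 in WT cells lowered 6 of 9 members, where 41.1% of all genes changed (21.1% lower, 20.1% higher), and the other 3 did not pass. MRTX1719 in WT cells lowered 5 of 9, where 7.53% changed (3.91% lower, 3.62% higher), and the other 4 did not pass. The 1117 genes behind that share became 433 without WT_MRTX replicate 1 and 510 without replicate 3, with 5 members called in each case. In KO cells 7 of 9 members fell with GSK3326595, where 52.8% of all genes changed (25.1% lower, 27.7% higher). With MRTX1719 in KO cells 7 of 9 fell, where 70.5% changed (33.6% lower, 37% higher). H2-Q6 and H2-Q7 did not pass with either inhibitor there. The median log2 fold change of the 9 members was -0.80 with GSK3326595 in WT cells, -0.19 with MRTX1719 in WT cells, -0.68 with GSK3326595 in KO cells and -0.79 with MRTX1719 in KO cells, beside medians over all genes of 0.00098, -0.00046, 0.0059 and 0.022. Members share libraries and promoter elements and are not independent of each other. The comparisons within a line share their DMSO libraries.

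**Figure D2:**
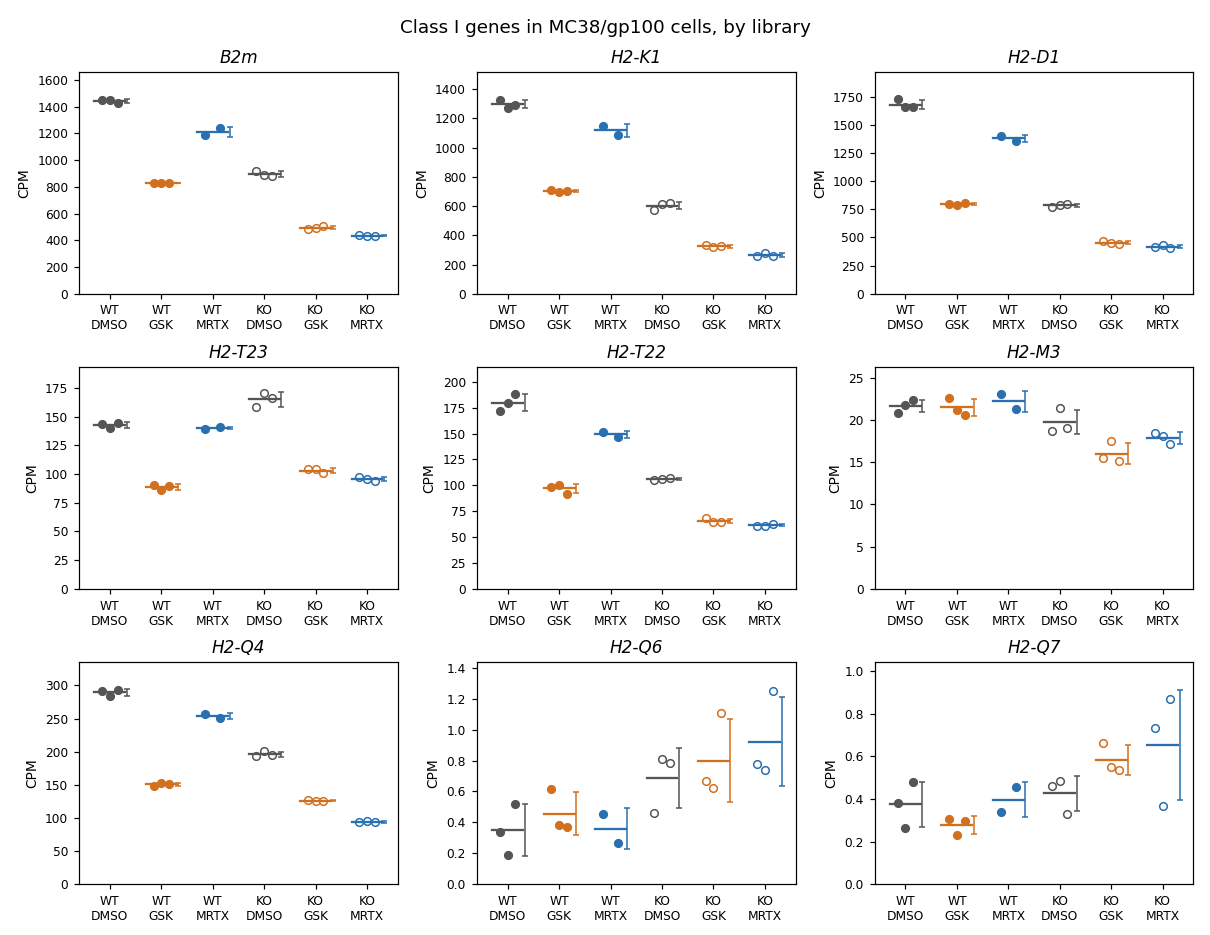
Points are CPM in each MC38 library, lines the group means and bars the SD, for the 9 members in 6 groups (filled circles WT, open circles KO, each axis from 0). B2m falls from 1427 to 1453 CPM in WT cells under DMSO to 432 to 439.6 CPM in KO cells with MRTX1719, H2-T23 is higher in KO than in WT cells under DMSO, and H2-Q6 and H2-Q7 stay at 1.25 CPM or less.

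The light chain gene B2m had 1451, 1453 and 1427 CPM in WT cells under DMSO and 918, 889 and 878 CPM in KO cells under DMSO. With GSK3326595 it had 829, 827 and 827 CPM in WT and 485, 488 and 507 CPM in KO cells. MRTX1719 gave 1186 and 1239 CPM in WT and 439.6, 434 and 432 CPM in KO cells. Libraries of each of the 6 groups kept apart from those of every other group. WT cells with GSK3326595 lay below untreated KO cells, and WT cells with MRTX1719 lay between untreated WT and untreated KO cells. B2m was lower in KO than in WT cells under DMSO (-0.69 ± 0.019, adjusted p = 1.1e-70). It fell with GSK3326595 by 0.80 ± 0.019 on the log2 scale in WT cells (adjusted p = 5.32e-77) and by 0.86 ± 0.019 in KO cells (adjusted p = 3.34e-79). The difference between these 2 effects did not pass (-0.06 ± 0.027, adjusted p = 0.0919). It passed without KO_DMSO replicate 3 (-0.07, adjusted p = 0.0375) or without KO_GSK replicate 3 (-0.08, adjusted p = 0.0182), within a range of 0.0182 to 0.228 over all alternatives. MRTX1719 lowered B2m by 0.25 ± 0.021 in WT cells (adjusted p = 1.22e-19) and by 1.04 ± 0.020 in KO cells (adjusted p = 7.9e-90), and here the difference between lines passed (-0.79 ± 0.028, adjusted p = 2.71e-55). MRTX1719 thus left 46.5% more B2m RNA than GSK3326595 in WT cells, and the difference in KO cells was -11.9%.

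H2-K1 encodes the classical heavy chain K. Its 3 libraries of WT cells under DMSO had 1327, 1272 and 1292 CPM, and the 3 of KO cells 574, 613 and 622 CPM. GSK3326595 gave 709, 695 and 705 CPM in WT and 336, 317 and 324 CPM in KO cells, and MRTX1719 gave 1152 and 1087 CPM in WT and 258, 279 and 261 CPM in KO cells. No group overlapped another, and unlike for B2m, WT cells with GSK3326595 lay above untreated KO cells. H2-K1 was lower in KO than in WT cells (-1.10 ± 0.032, adjusted p = 7.61e-16). It fell with GSK3326595 by almost the same amount in WT (-0.88 ± 0.032, adjusted p = 1.31e-13) and KO cells (-0.89 ± 0.034, adjusted p = 1.52e-13), and the difference was -0.01 ± 0.046 (adjusted p = 0.935). With MRTX1719 it fell by 0.21 ± 0.035 in WT cells (adjusted p = 0.000939) and by 1.18 ± 0.035 in KO cells (adjusted p = 1.01e-15), a difference of -0.97 ± 0.049 (adjusted p = 7.03e-12), the farthest from 0 of the 9 members in this contrast. Against GSK3326595, MRTX1719 left 59.3% more H2-K1 RNA in WT cells, and the difference in KO cells was -18.3% (adjusted p = 6.64e-11 and 1.8e-06).

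H2-D1 encodes the other classical heavy chain, D, which presents the gp100 peptide to pmel-1 T cells. Libraries had 1725, 1658 and 1657 CPM in WT cells under DMSO, 795, 791 and 803 CPM in WT cells with GSK3326595, and 1400 and 1357 CPM with MRTX1719. KO cells had 772, 792 and 793 CPM under DMSO, 467, 449 and 445 CPM with GSK3326595, and 418, 429 and 402 CPM with MRTX1719. WT cells with GSK3326595 and untreated KO cells overlapped, and each other pair of groups was separate. H2-D1 was lower in KO cells (-1.10 ± 0.019, adjusted p = 2.22e-86). GSK3326595 lowered it more in WT cells (-1.08 ± 0.019, adjusted p = 6.86e-84) than in KO cells (-0.79 ± 0.020, adjusted p = 9.12e-68), and this difference of 0.28 ± 0.028 passed (adjusted p = 1.9e-16). MRTX1719 lowered it less in WT cells (-0.29 ± 0.021, adjusted p = 1.01e-21) than in KO cells (-0.92 ± 0.020, adjusted p = 6.63e-75), a difference of -0.63 ± 0.029 (adjusted p = 3.74e-41). H2-D1 RNA with MRTX1719 was 73.1% above that with GSK3326595 in WT cells, and the difference in KO cells was -8.14% (adjusted p = 5.12e-64 and 1.65e-07).

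H2-T23, which encodes Qa-1, the non-classical chain read by the inhibitory receptor CD94/NKG2A, had the opposite difference between the lines. It had 144, 140.2 and 145 CPM in WT and 158, 171 and 166 CPM in KO cells under DMSO. All 3 KO libraries were above all 3 WT libraries (0.21 ± 0.028, adjusted p = 1.84e-11). With GSK3326595 it had 90.6, 85.7 and 89.8 CPM in WT and 104, 104 and 101 CPM in KO cells. MRTX1719 gave 139 and 141 CPM in WT and 97.1, 95.7 and 93.6 CPM in KO cells. WT cells with MRTX1719 overlapped untreated WT cells, and MRTX1719 gave no called change there (-0.03 ± 0.031, adjusted p = 0.718). GSK3326595 lowered H2-T23 by 0.69 ± 0.030 in WT (adjusted p = 3.83e-46) and 0.68 ± 0.029 in KO cells (adjusted p = 2.43e-47), and the difference did not pass (0.0029 ± 0.042, adjusted p = 0.966). MRTX1719 lowered it in KO cells by 0.79 ± 0.030 (adjusted p = 4.4e-54), which differed from its effect in WT cells by -0.77 ± 0.043 (adjusted p = 2.7e-35). The 2 inhibitors differed by 0.66 ± 0.033 in WT cells (MRTX1719 higher, adjusted p = 6.41e-40) and by -0.11 ± 0.031 in KO cells (adjusted p = 0.00164).

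H2-T22, whose product is a ligand of some gamma delta T cell receptors, had 172, 179.8 and 188 CPM in WT and 105, 106 and 107 CPM in KO cells under DMSO. GSK3326595 gave 98.6, 100.5 and 91.9 CPM in WT and 68.2, 64.1 and 64.8 CPM in KO cells, and MRTX1719 gave 151 and 147 CPM in WT and 60.7, 61.0 and 62.3 CPM in KO cells. All 6 groups were separate. H2-T22 was lower in KO cells (-0.76 ± 0.030, adjusted p = 1.04e-51). It fell by 0.89 ± 0.030 with GSK3326595 in WT cells (adjusted p = 3.61e-58), by 0.27 ± 0.032 with MRTX1719 in WT cells (adjusted p = 2.61e-11), by 0.69 ± 0.034 with GSK3326595 in KO cells (adjusted p = 4.52e-41) and by 0.79 ± 0.035 with MRTX1719 in KO cells (adjusted p = 1.46e-46). The effect differed between lines by 0.20 ± 0.045 for GSK3326595 (adjusted p = 0.000114) and -0.52 ± 0.047 for MRTX1719 (adjusted p = 1.59e-19). MRTX1719 was above GSK3326595 in WT cells (0.62 ± 0.033, adjusted p = 2.01e-36). In KO cells it was slightly below (-0.10 ± 0.037, adjusted p = 0.0168). That call was lost with DESeq2 (adjusted p = 0.0585), without KO_GSK replicate 1 (-0.07, adjusted p = 0.106), without KO_MRTX replicate 1 (-0.09, adjusted p = 0.0591) and without KO_MRTX replicate 2 (-0.09, adjusted p = 0.0577), with adjusted p from 0.00685 to 0.106 over all alternatives. Summed with its near copy H2-T10, H2-T22 gave 188 to 204 CPM in WT and 116 to 118 CPM in KO cells under DMSO, 101 to 111 and 71.2 to 74.5 CPM with GSK3326595, and 161 to 165 and 65.7 to 68.0 CPM with MRTX1719. The order of groups thus did not depend on how reads were split between them.

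H2-Q4 encodes another non-classical chain. WT libraries had 292, 284 and 293 CPM under DMSO, 148, 152 and 151 CPM with GSK3326595 and 257 and 251 CPM with MRTX1719. KO libraries had 193, 201 and 195 CPM under DMSO, 127, 126 and 125 CPM with GSK3326595 and 93.2, 95.5 and 93.2 CPM with MRTX1719, and no groups overlapped. H2-Q4 was lower in KO cells (-0.56 ± 0.024, adjusted p = 1.31e-47). It fell with GSK3326595 by 0.94 ± 0.025 in WT cells (adjusted p = 1.45e-71) and by 0.64 ± 0.026 in KO cells (adjusted p = 2.73e-49), a difference of 0.30 ± 0.036 (adjusted p = 7.52e-13). With MRTX1719 the fall was 0.19 ± 0.026 in WT cells (adjusted p = 1.04e-08) and 1.06 ± 0.027 in KO cells (adjusted p = 4.28e-73), a difference of -0.87 ± 0.038 (adjusted p = 1.78e-46). MRTX1719 differed from GSK3326595 by -25.4% in KO cells and lay 68.5% above it in WT cells (adjusted p = 1.78e-28 and 1.14e-54).

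H2-M3 encodes a chain that presents N-formylated peptides of bacteria and mitochondria. It had 20.8, 21.8 and 22.3 CPM under DMSO, 22.6, 21.2 and 20.6 CPM with GSK3326595 and 23.1 and 21.3 CPM with MRTX1719 in WT cells, and these groups overlapped. KO cells had 18.7, 21.4 and 19.0 CPM under DMSO, 15.5, 17.4 and 15.1 CPM with GSK3326595 and 18.4, 18.1 and 17.1 CPM with MRTX1719. All treated KO libraries were below the 3 untreated ones, and the inhibitors overlapped. Neither inhibitor gave a called change in WT cells (-0.01 ± 0.060 with GSK3326595, adjusted p = 0.911, and 0.04 ± 0.066 with MRTX1719, adjusted p = 0.826). In KO cells it fell with GSK3326595 (-0.30 ± 0.066, adjusted p = 3.63e-05), which differed from WT cells by -0.29 ± 0.089 (adjusted p = 0.00465).
H2-M3 also passed as lower with MRTX1719 in KO cells (-0.14 ± 0.065, adjusted p = 0.0412). That call was lost with DESeq2 (adjusted p = 0.142), without KO_DMSO replicate 2 (-0.08, adjusted p = 0.334), without KO_MRTX replicate 2 (-0.15, adjusted p = 0.0667) and without KO_MRTX replicate 3 (-0.12, adjusted p = 0.145), with adjusted p from 0.0113 to 0.334 over all alternatives. MRTX1719 was above GSK3326595 in KO cells (0.16 ± 0.067, adjusted p = 0.0389). That call was lost with DESeq2 (adjusted p = 0.107), with no low-count filter (adjusted p = 0.138), with only the compared groups (adjusted p = 0.0822), and without KO_GSK replicate 1 or 3 (adjusted p = 0.114 and 0.2001) or KO_MRTX replicate 1 or 2 (adjusted p = 0.117 and 0.0982), with adjusted p from 0.00738 to 0.2001 over all alternatives. The difference between lines under DMSO did not pass (-0.13 ± 0.063, adjusted p = 0.0551) and passed without WT_DMSO replicate 1 (-0.16, adjusted p = 0.0387) or KO_DMSO replicate 2 (-0.19, adjusted p = 0.0140), within 0.0140 to 0.227 over all alternatives. The MRTX1719 effect did not differ between lines at the threshold (-0.18 ± 0.093, adjusted p = 0.0839), but did with only the compared groups (-0.21, adjusted p = 0.0366), with the replicate block (-0.21, adjusted p = 0.0487), without WT_MRTX replicate 3 (-0.24, adjusted p = 0.0492) and without KO_DMSO replicate 1 (-0.22, adjusted p = 0.0465), within 0.0366 to 0.327 over all alternatives.

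H2-Q6 and H2-Q7 encode chains of the Qa-2 group and were close to absent from MC38 cells, with 5 to 29 counts per library. H2-Q6 had 0.338, 0.189 and 0.521 CPM in WT and 0.462, 0.809 and 0.787 CPM in KO cells under DMSO, 0.616, 0.385 and 0.369 CPM in WT and 0.665, 0.624 and 1.11 CPM in KO cells with GSK3326595, and 0.453 and 0.265 CPM in WT and 0.777, 0.736 and 1.25 CPM in KO cells with MRTX1719. It passed as higher in KO than in WT cells under DMSO (1.02 ± 0.39, adjusted p = 0.0154), although libraries of the 2 groups overlapped. This call was lost with DESeq2 (adjusted p = 0.0751), without WT_DMSO replicate 2 (0.70, adjusted p = 0.130), without KO_DMSO replicate 2 (0.90, adjusted p = 0.0686) and without KO_DMSO replicate 3 (0.92, adjusted p = 0.0573), with adjusted p from 0.00499 to 0.130 over all alternatives. H2-Q7 had 0.380, 0.265 and 0.478 CPM in WT and 0.462, 0.485 and 0.331 CPM in KO cells under DMSO, 0.308, 0.231 and 0.295 CPM in WT and 0.665, 0.551 and 0.534 CPM in KO cells with GSK3326595, and 0.340 and 0.454 CPM in WT and 0.731, 0.368 and 0.868 CPM in KO cells with MRTX1719. None of the 9 MC38 comparisons called H2-Q7 with edgeR's quasi-likelihood test, nor did DESeq2 in the 8 where it gave an adjusted p, and 0 of the 9 had an unadjusted p under 0.05. Without KO_MRTX replicate 2 its difference from DMSO in KO cells passed (0.90, adjusted p = 0.0412, within 0.0412 to 0.518 over all alternatives, and 0.57 ± 0.38 in the full set). At such counts the standard errors of both genes ran from 0.31 to 0.61 on the log2 scale, against 0.019 to 0.028 for B2m.

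Read across the members, the comparisons of the inhibitors with each other and between lines ran in opposite directions. Relative to GSK3326595, MRTX1719 left more RNA of 6 members in WT cells (30% of all genes differed, 15.4% higher and 14.6% lower). In KO cells it left less RNA of 6 members and more of 1 (53.2% of all genes differed, 24.9% lower and 28.3% higher). The MRTX1719 effect was lower in KO than in WT cells for 6 of 9 members (58.2% of all genes differed, 27.9% lower and 30.3% higher), with B2m, H2-K1, H2-D1, H2-T23, H2-T22 and H2-Q4 between -0.52 and -0.97. The GSK3326595 effect was higher, that is a smaller fall, in KO than in WT cells for H2-D1, H2-T22 and H2-Q4 and lower for H2-M3 (42.2% of all genes differed, 22% higher and 20.2% lower), while B2m, H2-K1 and H2-T23 did not pass.

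**Figure D3:**
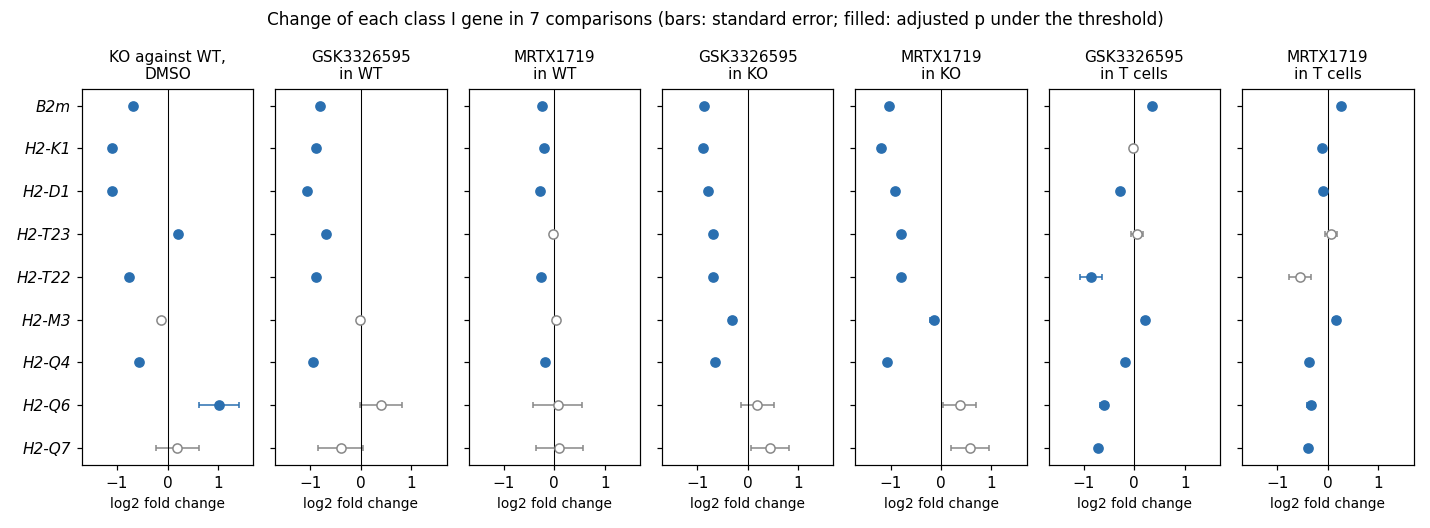
Points are log2 fold changes of the 9 members in 7 comparisons with bars for the SE, filled where the adjusted p is under 0.05 and open where it is not. MRTX1719 shifts B2m by -0.25 in WT and -1.04 in KO cells, and in T cells B2m is to the right of 0 with both inhibitors (0.35 and 0.26) while H2-Q6 and H2-Q7 are to the left.

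In T cells class I genes divided by gene, with B2m and H2-M3 higher and H2-D1, H2-Q4, H2-Q6 and H2-Q7 lower with both inhibitors. GSK3326595 raised 2 members and lowered 5, where 52.8% of all 13753 genes changed (26.6% higher, 26.2% lower). MRTX1719 also raised 2 and lowered 5, where 37.4% of all genes changed (18.9% higher, 18.5% lower), and this count of 7 became 4 without T_MRTX replicate 3. MRTX1719 against GSK3326595 had 3 members higher and 3 lower (39.1% of all genes, 19.3% higher and 19.7% lower), and this count of 6 became 3 without T_GSK replicate 1. The 2 treatments share their DMSO libraries. The sum of 3 NK cell markers (Ncr1, Klrb1c and Eomes, the last also made by activated CD8 T cells) went in the same libraries from 154 to 168 CPM under DMSO to 194 to 203 CPM with GSK3326595 and 185 to 191 CPM with MRTX1719, with Ncr1 at 0. The 10 T cell markers summed to 10733 to 11035 CPM under DMSO, 13151 to 14503 CPM with GSK3326595 and 11593 to 12181 CPM with MRTX1719. Fibroblast and endothelial markers summed to 29.5 to 37.2, 45.7 to 59.4 and 26.2 to 32.4 CPM, and epithelial markers to 3.91 to 4.54, 6.90 to 8.20 and 5.997 to 7.805 CPM, in the same order of groups. The part of these markers in the results was not tested.

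**Figure D4:**
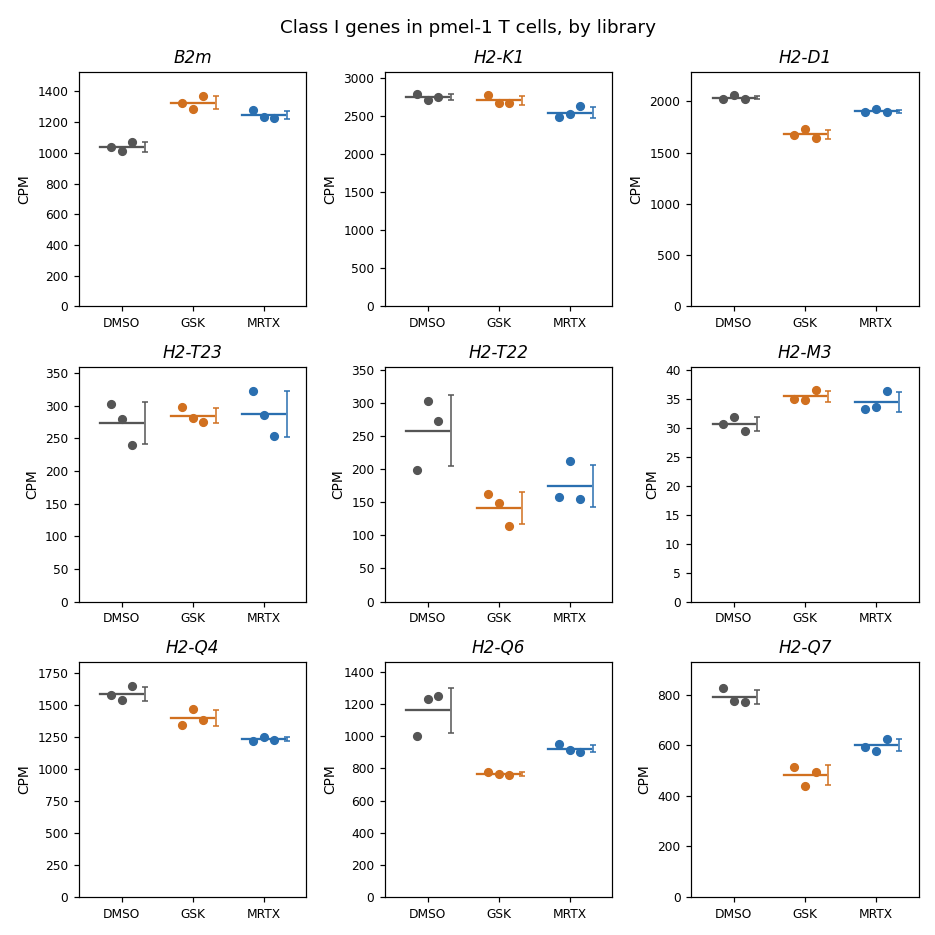
Points are CPM in each T cell library, lines the group means and bars the SD, for the 9 members under DMSO, GSK3326595 and MRTX1719 (each axis from 0). B2m libraries lie at 1010 to 1070 CPM under DMSO and at 1226 to 1370 CPM with an inhibitor, and H2-Q7 libraries at 773 to 826 CPM under DMSO and at 437 to 626 CPM with an inhibitor.

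B2m had 1035, 1010 and 1070 CPM in T cells under DMSO, 1325, 1283 and 1370 CPM with GSK3326595 and 1280, 1234 and 1226 CPM with MRTX1719. All 6 treated libraries were above the 3 controls, by 0.35 ± 0.032 with GSK3326595 (adjusted p = 6.82e-17, edgeR quasi-likelihood) and 0.26 ± 0.032 with MRTX1719 (adjusted p = 5.37e-11). MRTX1719 lay below GSK3326595 by 0.09 ± 0.032 (adjusted p = 0.0190). That call was lost with no low-count filter (adjusted p = 0.137), without T_GSK replicate 1 or 3 (-0.09 and -0.07, adjusted p = 0.0583 and 0.152) and without T_MRTX replicate 2 or 3 (-0.08 and -0.07, adjusted p = 0.0570 and 0.145), with adjusted p from 0.0106 to 0.152 over all alternatives.

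H2-K1 had 2786, 2718 and 2749 CPM under DMSO, 2775, 2676 and 2675 CPM with GSK3326595 and 2490, 2524 and 2629 CPM with MRTX1719 in T cells. GSK3326595 libraries overlapped the controls (-0.02 ± 0.030, adjusted p = 0.562), while MRTX1719 libraries were below both other groups. H2-K1 fell with MRTX1719 by 0.11 ± 0.030 (adjusted p = 0.00194), a call lost with no low-count filter (adjusted p = 0.0933, within 0.000721 to 0.0933 over all alternatives). Its difference from GSK3326595 of -0.09 ± 0.030 (adjusted p = 0.0140) was lost with no low-count filter (adjusted p = 0.1297), without T_GSK replicate 1 (-0.07, adjusted p = 0.128) and without T_MRTX replicate 1 (-0.06, adjusted p = 0.1296), within 0.00595 to 0.1297 over all alternatives. H2-D1 had 2027, 2059 and 2026 CPM under DMSO, 1667, 1728 and 1646 CPM with GSK3326595 and 1892, 1922 and 1894 CPM with MRTX1719, and the 3 groups were separate. It fell by 0.28 ± 0.031 with GSK3326595 (adjusted p = 2.98e-13). The smaller fall with MRTX1719, 0.10 ± 0.031 (adjusted p = 0.00669), was not called with no low-count filter (adjusted p = 0.197) or without T_MRTX replicate 3 (-0.09, adjusted p = 0.0534), within 0.00143 to 0.197 over all alternatives. The inhibitors differed by 0.18 ± 0.031 for H2-D1 (MRTX1719 higher, adjusted p = 7.18e-07).

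H2-T23 did not separate the T cell groups, with 302, 279.8 and 239 CPM under DMSO, 298, 281 and 275 CPM with GSK3326595 and 322, 286 and 253 CPM with MRTX1719. Its changes were 0.06 ± 0.12 with GSK3326595 (adjusted p = 0.722) and 0.06 ± 0.12 with MRTX1719 (adjusted p = 0.717), and all 3 groups overlapped. H2-T22 varied likewise, with 198, 303 and 272 CPM under DMSO, 162, 148 and 115 CPM with GSK3326595 and 158, 211 and 155 CPM with MRTX1719. GSK3326595 libraries were below all controls, and H2-T22 passed as lower (-0.86 ± 0.22, adjusted p = 0.0165), but not without T_DMSO replicate 2 (-0.74, adjusted p = 0.0532), T_DMSO replicate 3 (-0.82, adjusted p = 0.0537) or T_GSK replicate 3 (-0.73, adjusted p = 0.0538), within 0.000433 to 0.0538 over all alternatives. The MRTX1719 difference of -0.56 ± 0.22 did not pass (adjusted p = 0.0997) and passed with DESeq2 (adjusted p = 0.0405) and without T_DMSO replicate 1 (-0.72, adjusted p = 0.0470), within 0.0405 to 0.263 over all alternatives. Its near copy H2-T10 had less scatter, at 81.5, 90.2 and 83.6 CPM under DMSO, 52.9, 52.9 and 53.5 CPM with GSK3326595 and 56.7, 51.3 and 55.2 CPM with MRTX1719, and fell by 0.68 ± 0.050 (adjusted p = 1.52e-21) and 0.65 ± 0.051 (adjusted p = 1.5e-19). The sum of both genes was 279.6 to 393 CPM under DMSO, 168 to 215 CPM with GSK3326595 and 210.2 to 263 CPM with MRTX1719, with no overlap of either inhibitor with DMSO.

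H2-M3 had 30.6, 31.8 and 29.5 CPM in T cells under DMSO, 35.0, 34.8 and 36.5 CPM with GSK3326595 and 33.3, 33.5 and 36.4 CPM with MRTX1719. All treated libraries were above the controls. H2-M3 rose with GSK3326595 by 0.21 ± 0.066 (adjusted p = 0.00419) and with MRTX1719 by 0.17 ± 0.066 (adjusted p = 0.0317). The second call was lost with DESeq2 (adjusted p = 0.0713), without T_DMSO replicate 1 or 3 (0.17 and 0.15, adjusted p = 0.0758 and 0.1003) and without T_MRTX replicate 3 (0.13, adjusted p = 0.169), within 0.0238 to 0.169 over all alternatives. H2-Q4 had 1574, 1535 and 1645 CPM under DMSO, 1344, 1469 and 1381 CPM with GSK3326595 and 1221, 1250 and 1223 CPM with MRTX1719, in 3 separate groups. H2-Q4 fell by 0.18 ± 0.032 with GSK3326595 (adjusted p = 1.23e-06) and by 0.36 ± 0.032 with MRTX1719 (adjusted p = 8.27e-17), which lay 0.18 ± 0.032 lower than GSK3326595 (adjusted p = 1.69e-06). H2-Q4 and H2-K1 were thus lower with MRTX1719 than with GSK3326595, and H2-D1, H2-Q6 and H2-Q7 the reverse.

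H2-Q6 and H2-Q7, near 0 in MC38 cells, were abundant in T cells. H2-Q6 had 1002, 1233 and 1253 CPM under DMSO, 779.9, 763 and 759 CPM with GSK3326595 and 952, 917 and 904 CPM with MRTX1719, with all treated libraries below the controls, of which replicate 1 was the lowest. It fell by 0.60 ± 0.085 with GSK3326595 (adjusted p = 0.000849). With MRTX1719 it fell by 0.33 ± 0.084 (adjusted p = 0.0215). That call was lost with only the compared groups (adjusted p = 0.0591) and without T_DMSO replicate 2 or 3 (-0.28 and -0.26, adjusted p = 0.0705 and 0.0641) or T_MRTX replicate 1, 2 or 3 (-0.35, -0.32 and -0.31, adjusted p = 0.0507, 0.0714 and 0.0710), with 0.0714 the highest over all alternatives. H2-Q6 with MRTX1719 lay above GSK3326595 by 0.27 ± 0.085 (adjusted p = 0.0454). This call was lost without any single library of either group (T_GSK replicates 1, 2 and 3 and T_MRTX replicates 1, 2 and 3, 0.25 to 0.29, adjusted p = 0.0791 to 0.121) and with the replicate block (adjusted p = 0.0578), with 0.121 the highest over all alternatives. H2-Q7 had 826, 777 and 773 CPM under DMSO, 513, 437 and 494 CPM with GSK3326595 and 595, 579 and 626 CPM with MRTX1719, in 3 separate groups. It fell by 0.72 ± 0.045 with GSK3326595 (adjusted p = 6.64e-13) and by 0.40 ± 0.045 with MRTX1719 (adjusted p = 8.03e-08), and MRTX1719 lay 0.32 ± 0.045 above GSK3326595 (adjusted p = 2.82e-06). The control library with the least H2-Q6 had the most H2-Q7, and the sum of the 2 genes, which does not depend on how reads were split between them, was 1828 to 2026 CPM under DMSO, 1201 to 1292 CPM with GSK3326595 and 1496 to 1547 CPM with MRTX1719.

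The balance of light to heavy chain RNA was followed as B2m CPM divided by the summed CPM of the 8 heavy chains in each library. This is a ratio of counts not scaled by length, so only its change between groups can be read. It was 0.3998 ± 0.00773 in WT cells under DMSO (SD, n = 3), 0.445 ± 0.00216 with GSK3326595 and 0.396 ± 0.0231 with MRTX1719 (n = 2). In KO cells it was 0.477 ± 0.0232 under DMSO, 0.452 ± 0.0188 with GSK3326595 and 0.457 ± 0.0123 with MRTX1719 (n = 3 each). KO and WT libraries did not overlap under DMSO, nor did WT libraries with and without GSK3326595 (two-sided exact permutation p = 0.1 for each, the smallest that 3 against 3 allows). In T cells the ratio was 0.117 ± 0.00328 under DMSO, 0.177 ± 0.00788 with GSK3326595 and 0.162 ± 0.00451 with MRTX1719, again without overlap with DMSO (exact permutation p = 0.1 for each, the smallest possible). The other 3 of the 7 comparisons of this ratio overlapped (exact permutation p = 1, 0.3 and 0.4), and no p was adjusted because none could pass.

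Across the 17 MC38 libraries, B2m, H2-K1, H2-D1, H2-T22 and H2-Q4 varied together, H2-M3 did so less closely, and H2-T23 kept another pattern. These are Pearson correlations of log2 CPM with 10229 genes of at least 5 CPM, and the libraries fall into 6 groups and share the differences between lines, so r is a description. B2m was most like Mlkl, a mediator of necroptosis (r = 0.997), then H2-T22 (0.989), the immunoproteasome gene Psmb9 (0.989), H2-T10 (0.988), H2-K1 (0.988) and H2-D1 (0.988), with Phkb (0.986) and Dctn2 (0.984) after them. H2-K1 was most like Dctn2 (0.992), Ift43 (0.991), St7l (0.991), Shisa5 (0.990) and Pdxdc1 (0.990). H2-D1 was most like H2-T22 (0.993), and outside the members like Skap2 (0.991), Herc6 (0.986), Ifi35 (0.986), Mlkl (0.985) and Shisa5 (0.984). With B2m, H2-K1 and H2-D1 in that order, H2-Q4 had r = 0.972, 0.949 and 0.961, and H2-M3 had 0.799, 0.824 and 0.801. H2-T23 had r = 0.654 with B2m and 0.555 with H2-K1, and was most like Ifitm3 (0.977), Irgm2 (0.963), Tgtp2 (0.950), Gulp1 (0.935) and Brip1os (0.930), the first 3 of them known as interferon-stimulated genes. Across the 9 T cell libraries (9508 genes) the members did not move as a set. B2m there had r = -0.898 with H2-D1 and -0.914 with H2-Q7 and 0.837 with H2-M3, and was most like Prcc (0.995), Lcp1 (0.995), Ssu72 (0.990), Cat (0.989) and Med30 (0.989). H2-D1 was most like Ppp1r15a (0.994), Myo19 (0.992), Galnt3 (0.991), Nlgn2 (0.990) and Csrnp1 (0.987), and H2-K1 like Ppp1r9b (0.969), Nr1h2 (0.958), Bag6 (0.953), Dus3l (0.951) and Gm31166 (0.951). H2-T23 was most like Gm45715 (0.922), Abhd6 (0.918), Fbxo44 (0.821), Scoc (0.811) and G3bp2 (0.810).

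Genes that load class I with peptide were counted as a list. Of 13 genes of peptide transport, trimming, loading and the immunoproteasome, 10 fell and 2 rose with GSK3326595 in WT cells (median log2 fold change -0.29), 2 fell and 11 did not pass with MRTX1719 in WT cells (-0.05), 7 fell and 3 rose with GSK3326595 in KO cells (-0.12), and 9 fell and 3 rose with MRTX1719 in KO cells (-0.15). Between the lines 5 were lower and 7 higher in KO cells (median 0.06). The shares of all genes called in these comparisons were 41.1%, 7.53%, 52.8%, 70.5% and, between the lines, 73.2%. Among the 7 higher in KO cells, Canx went from 906 ± 2.75 to 1532 ± 8.55 CPM under DMSO (0.76 ± 0.018, adjusted p = 6.17e-79). The transporter gene Tap1 went from 147 ± 0.401 CPM in WT to 82.0 ± 2.64 CPM in KO cells under DMSO (-0.84 ± 0.031, adjusted p = 4.79e-56), and Psmb9 from 40.2 ± 0.284 to 22.6 ± 0.370 CPM (-0.83 ± 0.053, adjusted p = 4.89e-31). Psmb9 then fell by 0.87 ± 0.065 with GSK3326595 (adjusted p = 6.36e-25) and by 1.39 ± 0.072 with MRTX1719 in KO cells (adjusted p = 1.47e-39), while the chaperone gene Calr rose with MRTX1719 by 0.67 ± 0.018 (adjusted p = 2.81e-71). In T cells 9 of 13 were higher and 1 lower with GSK3326595 (median 0.13, 52.8% of all genes called). With MRTX1719 there 6 were higher and 2 lower (0.07, 37.4% of all genes called). The largest rises with GSK3326595 were those of the trimming enzyme gene Erap1 (0.61 ± 0.047, adjusted p = 1.3e-20) and the editor gene Tapbpl (0.58 ± 0.044, adjusted p = 3.29e-21).

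Genes listed as acting on class I transcription did not follow the members in every comparison. The list holds Ezh2, which encodes a histone methyltransferase and not a transcription factor. Ezh2 rose with GSK3326595 in KO cells (0.29 ± 0.042). In T cells it rose with GSK3326595 (0.66 ± 0.042) and with MRTX1719 (0.49 ± 0.042), and it is counted below among the genes that rose there. Of the 14 listed genes, 7 were lower and 4 higher in KO than in WT cells. In WT cells 4 fell and 2 rose with GSK3326595, and 2 rose and 12 did not pass with MRTX1719. In KO cells 6 fell and 5 rose with GSK3326595, and 5 fell and 5 rose with MRTX1719. The 11 of 14 called between the lines stand beside 73.2% of all genes, and the 10 with MRTX1719 in KO cells beside 70.5%. The 4 and 2 called with GSK3326595 in WT cells stand beside 41.1%, so all of these counts are near the background. The other shares were 7.53% with MRTX1719 in WT cells and 52.8% with GSK3326595 in KO cells. Nlrc5 was lower in KO cells, at 43.1 ± 1.78 against 88.4 ± 2.52 CPM under DMSO (-1.04 ± 0.037, adjusted p = 1.98e-56). With the inhibitors in KO cells Nlrc5 was slightly higher (0.15 ± 0.041 with GSK3326595, adjusted p = 0.00113, and 0.13 ± 0.042 with MRTX1719, adjusted p = 0.00450), where 7 members fell. Rfx5, of the RFX complex that binds the X box, fell with MRTX1719 in KO cells by 0.92 ± 0.057 (adjusted p = 2.26e-32). With GSK3326595 Rfx5 fell in KO cells (-0.40 ± 0.052) but rose in WT cells (0.23 ± 0.052, adjusted p = 0.000105), where 6 members fell. In T cells Rfx5 fell with GSK3326595 (-0.79 ± 0.10) and with MRTX1719 (-0.60 ± 0.10).
In T cells 6 of the 14 were higher and 3 lower with GSK3326595, and 1 higher and 6 lower with MRTX1719, where 52.8% and 37.4% of all genes were called, with Nlrc5 at 608 ± 11.03 CPM under DMSO, 618 ± 4.48 CPM with GSK3326595 (adjusted p = 0.552) and 481 ± 3.90 CPM with MRTX1719 (-0.34 ± 0.033, adjusted p = 7.97e-15).

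Of 12 genes of interferon signalling, 7 were lower and 4 higher in KO than in WT cells, 7 fell and 1 rose with GSK3326595 in WT cells, 2 rose and 10 did not pass with MRTX1719 in WT cells, 5 fell and 3 rose with GSK3326595 in KO cells, and 5 fell and 4 rose with MRTX1719 in KO cells. All genes were called at 73.2%, 41.1%, 7.53%, 52.8% and 70.5% in these comparisons, so the 9 of 12 with MRTX1719 in KO cells are near the background. Irf7, the factor that amplifies type I interferon responses, had 117 ± 0.937 CPM in WT cells under DMSO, 52.3 ± 1.54 CPM with GSK3326595 and 119 ± 0.360 CPM with MRTX1719 (n = 2). In KO cells it had 83.0 ± 1.85, 46.8 ± 1.503 and 46.6 ± 1.16 CPM. Its fall with MRTX1719 thus passed in KO cells (-0.83 ± 0.037, adjusted p = 9.9e-47) and not in WT cells (0.03 ± 0.033, adjusted p = 0.71), and the difference passed (-0.86 ± 0.049, adjusted p = 8.56e-35). In T cells 5 of the 12 fell and 4 rose with GSK3326595 and 6 fell and 2 rose with MRTX1719 (52.8% and 37.4% of all genes called). Irf7 was among those that fell (-1.01 ± 0.040, adjusted p = 1.88e-39, and -0.77 ± 0.040, adjusted p = 1.6e-30), as were Stat2, Irf9 and Usp18. In the same cells 2 members, B2m and H2-M3, rose and 5 members fell with each inhibitor.

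Other class I genes outside the 9 members were counted where they could be tested, 10 of 20 in the MC38 table and 9 of 20 in the T cell table. H2-T24 fell with GSK3326595 by 1.23 ± 0.13 in WT cells (adjusted p = 6.45e-15) and 1.13 ± 0.14 in KO cells (adjusted p = 6.75e-12), and with MRTX1719 by 1.32 ± 0.15 in KO cells (adjusted p = 2.25e-14). Over the list, 2 fell and 2 rose with GSK3326595 in WT cells (41.1% of all genes called), so this count is near the background. With MRTX1719 in WT cells 10 did not pass (edgeR quasi-likelihood, 1 with an unadjusted p under 0.05, 7.53% of all genes called). In KO cells 5 fell and 1 rose with GSK3326595, and 6 fell and 2 rose with MRTX1719 (52.8% and 70.5% of all genes called). In T cells 4 fell and 2 rose with GSK3326595, and 4 fell and 1 rose with MRTX1719 (52.8% and 37.4%). H2-Q5, which may share reads with H2-Q7, went from 118 ± 5.46 to 40.9 ± 2.91 CPM with GSK3326595 (-1.53 ± 0.052, adjusted p = 3.49e-43) and to 61.8 ± 3.92 CPM with MRTX1719 (-0.93 ± 0.049, adjusted p = 7.87e-29). H2-Q10, which encodes a secreted chain, went from 49.6 ± 2.41 to 16.4 ± 1.21 and 33.6 ± 0.635 CPM (-1.59 ± 0.070, adjusted p = 1.49e-36, and -0.56 ± 0.063, adjusted p = 2.02e-12), the same order of treatments as for H2-Q6 and H2-Q7.

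In T cells, most genes of a list of class I receptors rose. The list also holds Klrk1 and Cd244a, whose ligands are not among the 9 members. Of 12 receptor genes 10 could be tested in T cells, of which 9 rose and 1 did not pass with GSK3326595 (median log2 fold change 0.79) and 7 rose and 3 did not pass with MRTX1719 (0.46), where 26.6% and 18.9% of all genes rose. Klrd1, which encodes CD94, went from 17.2 ± 0.373 CPM under DMSO to 49.4 ± 2.04 CPM with GSK3326595 (1.53 ± 0.071, adjusted p = 7.3e-35) and 34.8 ± 3.11 CPM with MRTX1719 (1.01 ± 0.074, adjusted p = 3.4e-21). Its partner Klrc1, which encodes NKG2A and with CD94 reads the product of H2-T23, went from 2.09 ± 0.0690 to 7.30 ± 0.268 and 4.24 ± 0.517 CPM (1.80 ± 0.18, adjusted p = 2.12e-15, and 1.01 ± 0.19, adjusted p = 1.05e-05). The coreceptor gene Cd8a rose by 0.59 ± 0.033 with GSK3326595 (adjusted p = 3.4e-29) and by 0.10 ± 0.033 with MRTX1719 (adjusted p = 0.0144).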

How the data were processed

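RNA-seq of 26 libraries in 9 groups was used. Per the submitters' processing notes, the tools were TopHat2 2.0.10, Bowtie2 2.1.0 and DESeq 1.18.0 on GRCm39. The counting program, annotation and strand setting were not given in the sources used here. The authors deposited raw read counts for 56562 gene identifiers and a normalized signal with gene names, separately for MC38 and T cells. Each normalized value was found to be a count divided by a library factor (265693 of 265693 and 137700 of 137700 values whole within 1e-06), so counts were tied to names through it.

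Counts of each table were fitted over all its groups with edgeR 4.0.16 (TMM, filterByExpr, robust quasi-likelihood test, no covariates) in R 4.3.3, giving 14835 and 13753 genes tested, and p-values were adjusted by Benjamini-Hochberg over all of them at 0.05. CPM use TMM-scaled library sizes. Alternatives were RLE size factors, no low-count filter, only the compared groups, DESeq2 1.42.0, a replicate block and leaving out each library. The 2 tables were never tested against each other. Each list's named genes were up to 4 called genes with the largest change; Nlrc5, H2-T10, Cd8a and the levels of some others were named after their values were seen. The members and lists were chosen with earlier results of these data known.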

Additional observations from a re-analysis of the deposited data

Results flagged for a closer look

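For 10 results the effect of an inhibitor differed between the MC38 lines by a test of the difference itself (edgeR's quasi-likelihood test, KO minus WT, log2 scale). With GSK3326595 the differences were 0.28 for H2-D1, 0.20 for H2-T22, 0.30 for H2-Q4 and -0.29 for H2-M3. With MRTX1719 they were -0.79 for B2m, -0.97 for H2-K1, -0.63 for H2-D1, -0.77 for H2-T23, -0.52 for H2-T22 and -0.87 for H2-Q4. These are 4 of 9 members with GSK3326595, where 42.2% of all genes passed, so this count is near the background, and 6 of 9 with MRTX1719, where 58.2% passed. For 7 others, every T cell library moved the other way from every library of an MC38 line relative to its own DMSO group. Of 11818 genes tested in both tables, 13% did so with GSK3326595 against WT cells, 17.7% with GSK3326595 against KO cells, 10.1% with MRTX1719 against WT cells and 17.8% with MRTX1719 against KO cells, and the members were 1, 3, 1 and 2 of 9. These were B2m with GSK3326595 (0.35 in T cells, against both lines), B2m with MRTX1719 (0.26, against both lines), H2-M3 with GSK3326595 (0.21, against KO cells), H2-M3 with MRTX1719 (0.17, against KO cells) and H2-Q7 with GSK3326595 (-0.72, against KO cells, where H2-Q7 has few counts and was not called, 0.45 ± 0.38, adjusted p = 0.341 by edgeR). The H2-M3 calls with MRTX1719 in KO cells and in T cells were each lost under several alternatives. These differences between T cells and MC38 cells were not tested, because the tables were normalized and fitted separately. Kind of cell and days of treatment cannot be told apart there.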

How the results depend on the processing

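RLE size factors left 108 of 108 member results on the same side of the threshold and in the same direction, and the authors' normalized signal kept 63 of 63 ratios of group levels within their spread. The counts of members and genes called stayed within 1.5 times under each of the 5 settings that keep all libraries. With the replicate block, H2-Q6 and H2-Q7 with MRTX1719 in WT cells turned to -0.039 and -0.029, both uncalled. Over all genes tested, same-numbered libraries did not deviate together (r from -0.0555 to 0.0370 in MC38 and -0.0306 to 0.0383 in T cells). These correlations over all genes cannot settle whether numbers pair samples. H2-T23 in T cells fell from replicate 1 to replicate 3 in each group. With no low-count filter H2-T23's difference between lines under GSK3326595 was -0.0059. DESeq2 gave no adjusted p for H2-M3, H2-Q6 and H2-Q7 with MRTX1719 in WT cells.

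Leaving out 1 library turned the direction only of changes that were not called. The ranges were -0.013 to 0.40 for H2-Q7 between lines, -0.050 to 0.022 for H2-M3 with GSK3326595 in WT cells, -0.018 to 0.093, -0.36 to 0.46 and -0.12 to 0.31 for H2-M3, H2-Q6 and H2-Q7 with MRTX1719 in WT cells, and -0.12 to 0.36 for H2-Q6 with GSK3326595 in KO cells. Between lines they were -0.045 to 0.014, -0.030 to 0.025 and -0.60 to 0.11 for H2-K1, H2-T23 and H2-Q6 with GSK3326595 and -0.089 to 0.73 for H2-Q6 with MRTX1719. Between inhibitors they were -0.0083 to 0.10 for H2-M3 in WT cells, -0.086 to 0.49 and -0.12 to 0.46 for H2-Q6 and H2-Q7 in KO cells and -0.072 to 0.10 for H2-T23 in T cells, where H2-T23 also had -0.03 to 0.13 with GSK3326595 and -0.017 to 0.16 with MRTX1719. All genes called with MRTX1719 in WT cells went from 1117 to between 433 and 912 (433 without WT_MRTX replicate 1, 510 without replicate 3). Members called in T cells ranged over 4 to 7 with MRTX1719 and 3 to 5 between inhibitors.

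With H2-K1 and H2-D1 alone as heavy chains, the ratio of B2m to heavy chain RNA relative to its control was 1.33 in KO against WT cells, 1.14 with GSK3326595 and 1.001 with MRTX1719 in WT cells, and 1.39 and 1.29 in T cells; with all 8, leaving out 1 library gave 0.950 to 1.03 for MRTX1719 in WT cells. The cause was not tested. Counts of 5 to 29 per library limit H2-Q6 and H2-Q7 in MC38 cells.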

Other observations

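Beta-2 microglobulin also holds together proteins that do not show peptides to CD8 T cells, and 3 of their genes, named after their values were seen, were higher in KO than in WT cells. In the list of other class I and class I-like genes they belong to, 3 of 10 tested were higher, 3 lower and 4 not called, where 36.2% of all genes were higher and 37% lower. Fcgrt, which encodes the neonatal Fc receptor, had 7.95 ± 0.731 CPM in WT and 22.9 ± 0.909 CPM in KO cells under DMSO (SD, n = 3; 1.53 ± 0.076 on the log2 scale, adjusted p = 1.78e-41, edgeR quasi-likelihood). Hfe, a regulator of iron uptake, went from 14.1 ± 0.581 to 31.8 ± 1.98 CPM (1.18 ± 0.061, adjusted p = 1.07e-39) and Cd1d1, which presents lipids, from 2.51 ± 0.209 to 4.42 ± 0.684 CPM (0.81 ± 0.15, adjusted p = 1.01e-06). In KO cells Hfe had 23.1 ± 1.01 CPM with GSK3326595 and 19.3 ± 0.377 CPM with MRTX1719, and its response differed from that of WT cells with both (-0.64 ± 0.088, adjusted p = 3.3e-10, and -0.73 ± 0.097, adjusted p = 4.11e-11). Mr1, which presents microbial vitamin metabolites, had 24.6 ± 1.32 CPM in WT and 24.7 ± 0.182 CPM in KO cells under DMSO.

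Of 11 class II genes 3 could be tested in MC38 cells, among them H2-DMb1, with group means of 15.1 to 18.7 CPM, and Cd74, the invariant chain, with 1.21 ± 0.248 CPM in WT and 0.0960 ± 0.103 CPM in KO cells under DMSO (-3.70 ± 0.48, adjusted p = 4.66e-12). In T cells 4 of the 8 tested rose with GSK3326595, where 26.6% of all genes rose: H2-DMb1 (1.39 ± 0.36, adjusted p = 0.0007), H2-Oa (0.68 ± 0.12, adjusted p = 1.19e-06), H2-DMa (0.51 ± 0.084, adjusted p = 1.85e-07) and Ciita, the class II transactivator (0.90 ± 0.35, adjusted p = 0.0226). Levels in T cells were low for H2-DMb1 (0.619 ± 0.282 CPM under DMSO, 1.64 ± 0.406 CPM with GSK3326595) and Ciita (0.785 ± 0.214 and 1.46 ± 0.293 CPM). H2-Oa had 6.73 ± 0.373 and 10.9 ± 1.06 CPM, and H2-DMa 16.4 ± 1.43 and 23.4 ± 0.517 CPM. With MRTX1719 there 1 of 8 was higher and 7 did not pass (median log2 fold change -0.12, Ciita -0.28 ± 0.40, adjusted p = 0.624), and 3 were lower than with GSK3326595. B cell and myeloid markers in these libraries summed to 4.89 to 6.84 CPM and 24.7 to 27.2 CPM with GSK3326595, against 3.27 to 4.75 CPM and 26.9 to 30.4 CPM under DMSO, with Ms4a1 at 0, and their part was not tested.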
